A study of Mus musculus with 8 samples.

Results

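The miR-181 family was followed through small RNA libraries of mouse liver. Its members were taken as every listed name that starts with miR-181a-, miR-181b-, miR-181c- or miR-181d-, with a level of 0 where a library did not list it, and 7 of the 862 names in the 8 libraries met that rule. They were the 4 arms miR-181a-5p, miR-181b-5p, miR-181c-5p and miR-181d-5p and the 3 arms miR-181a-1-3p, miR-181b-1-3p and miR-181c-3p. Levels are in RPM, the reads of a name scaled to a library total of 1000000 reads on listed names. All libraries came from male C57BL/6J mice that were wild type, kept singly and 8 weeks old at the start of a feeding period of 12 weeks. Under caloric restriction (CR) food was cut by 20% in the first week and by 40% for the next 11 weeks, and ad libitum (AL) mice ate freely. Mitochondria, prepared by differential centrifugation as mitoplasts, gave 3 libraries from CR liver and 3 from AL liver. Whole liver gave 1 library from CR mice and 1 from AL mice, each a pool of 3 RNA samples in equal amounts. Nothing in the labels ties the mitochondrial replicates to separate animals, and the p-values then cover only the spread between libraries, which may be technical.

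A miRNA is cut from a hairpin precursor whose 5′ and 3′ sides can each yield a mature arm, named 5p and 3p, and the arm that is kept guides Argonaute proteins to messenger RNAs. Pairing rests mainly on the seed, bases 2 to 8 of the mature arm, so that arms with the same seed can share targets. In mouse, miR-181a is best known for setting the sensitivity of T cell receptor signalling in developing T cells, and miR-181b for restraining NF-kappaB signalling in endothelium. miR-181c is known from rat heart, where it was described inside mitochondria as a regulator of the mitochondrially encoded subunit mt-Cox1.

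The mature sequences show which members can share targets and how closely their names resemble each other. They are given as the deposited tables have them, except miR-181a-2-3p, which comes from RefSeq (GRCm38.p6) and was listed in none of the 8 libraries. The member miR-181b-1-3p is not printed. As deposited it has 19 bases, against 21 in RefSeq, and miR-181b-5p has 23, against 24 in RefSeq. Capitals mark the seed.
miR-181a-5p: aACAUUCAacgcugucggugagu
miR-181b-5p: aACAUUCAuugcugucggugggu
miR-181c-5p: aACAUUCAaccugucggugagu
miR-181d-5p: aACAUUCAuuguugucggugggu
miR-181a-1-3p: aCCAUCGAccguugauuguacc
miR-181c-3p: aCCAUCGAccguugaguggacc
miR-181a-2-3p: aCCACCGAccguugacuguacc

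The 4 5p arms share the seed ACAUUCA, which no other of the 862 listed names carries. miR-181a-1-3p and miR-181c-3p share the seed CCAUCGA, likewise carried by no other listed name. The member miR-181b-1-3p has a different seed, UCACUGA, which no other listed name carries. Counted from 1 at the 5′ end, with the base of the first-named arm given first, miR-181a-5p and miR-181b-5p differ by A9U, C10U and A21G. miR-181b-5p and miR-181d-5p differ by C12U alone. miR-181c-5p, with 22 bases, is 1 edit away from miR-181a-5p, with 23 bases: they share their first 10 bases, and without a gap they differ at 11 positions. miR-181a-1-3p and miR-181a-2-3p differ by U5C and U16C. The mismatches and multiple hits allowed when names were assigned are not given in the sources used here. Whether reads were exchanged between miR-181b-5p and miR-181d-5p, or between miR-181a-5p and miR-181c-5p, was not tested.

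The arms come from 3 pairs of neighbouring hairpins (GRCm38, GENCODE M21). Mir181a-1 (chr1:137966455-137966541) and Mir181b-1 (chr1:137966639-137966718) lie 97 bases apart on the plus strand, in an intron of the noncoding gene Gm4258 and overlapping an exon of the lincRNA A430106G13Rik. Mir181a-2 (chr2:38852735-38852810) and Mir181b-2 (chr2:38853830-38853918) lie on the plus strand, opposite an intron of the nuclear receptor gene Nr6a1. Mir181c (chr8:84178873-84178961) and Mir181d (chr8:84178716-84178787) lie 85 bases apart on the minus strand in an intron of Nanos3, a germ cell gene read from the same strand. miR-181a-5p and miR-181b-5p are each made from 2 hairpins that their reads do not tell apart. The 3p arms differ between those hairpins: miR-181a-1-3p and miR-181b-1-3p, both of chromosome 1, were listed, whereas miR-181a-2-3p and miR-181b-2-3p of chromosome 2, and miR-181d-3p, were not.

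The exact match to the shared 5p seed, TGAATGT, was looked for in the 37 transcripts of the mitochondrial genome (GENCODE M21, 15441 bases, 13 of them protein-coding). It was found 0 times on the transcript strand and 0 times on the other strand, and the 6-base match GAATGT was found 0 times on the transcript strand. In 58784 nuclear protein-coding transcripts the 7-base match occurred 0.117 times per kilobase. The search says only that these letters are not in those transcripts.

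The family took a small part of every library, and miR-181a-5p took most of the family. miR-181a-5p stood at 90.8, 104 and 89.7 RPM in CR mitochondria (replicates 1 to 3), at 178, 131 and 161 RPM in AL mitochondria, at 288 RPM in the CR pool and at 305 RPM in the AL pool. Within the mitochondrial libraries it ranked between 79 and 97 by level, and in both pools it ranked 76. Summed over the 7 names, the family reached 112, 129.9 and 129 RPM in CR mitochondria, 216, 163 and 196 RPM in AL mitochondria, 346 RPM in the CR pool and 383 RPM in the AL pool. In this sum, most of which is miR-181a-5p, all 3 CR mitochondrial libraries lay below all 3 AL ones. So did 14.3% of the 391 single names tested. All 6 mitochondrial libraries lay below both pools, as for 27.1% of the 417 names tested there, and each pool is 1 library.

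The other members rest on few reads. The libraries held 1200984, 1577691 and 1070762 reads (CR mitochondria), 1083328, 1095018 and 1422418 reads (AL mitochondria), 3242002 reads (CR pool) and 2431564 reads (AL pool), and 1 read was worth 0.308 to 0.934 RPM. miR-181b-5p, the next most abundant member in the pools, had 9, 15 and 15 reads in CR mitochondria and 17, 8 and 29 in AL mitochondria, against 106 in the CR pool and 98 in the AL pool. miR-181c-5p had 9, 12 and 16 reads in CR mitochondria and 16, 11 and 10 in AL mitochondria, against 19 in the CR pool and 9 in the AL pool. Its reads were thus about as many in the mitochondrial libraries as in the deeper pools. miR-181d-5p had 0, 10 and 3 reads in CR mitochondria and 0, 4 and 2 in AL mitochondria, against 30 in the CR pool and 37 in the AL pool. miR-181a-1-3p had 3, 1 and 6 reads in CR mitochondria and 6, 7 and 5 in AL mitochondria, against 26 in the CR pool and 31 in the AL pool. miR-181c-3p had 1 to 4 reads in each mitochondrial library, 7 in the CR pool and 13 in the AL pool. miR-181b-1-3p had 0 to 2 reads in every library and was the 1 member of 7 that did not pass the filter of at least 1 RPM in at least 3 libraries, so 6 members were tested. A count of 0 allows up to 3 reads, 0.925 to 2.80 RPM depending on the library. These limits and the intervals below cover counting error only.

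**Figure D1:**
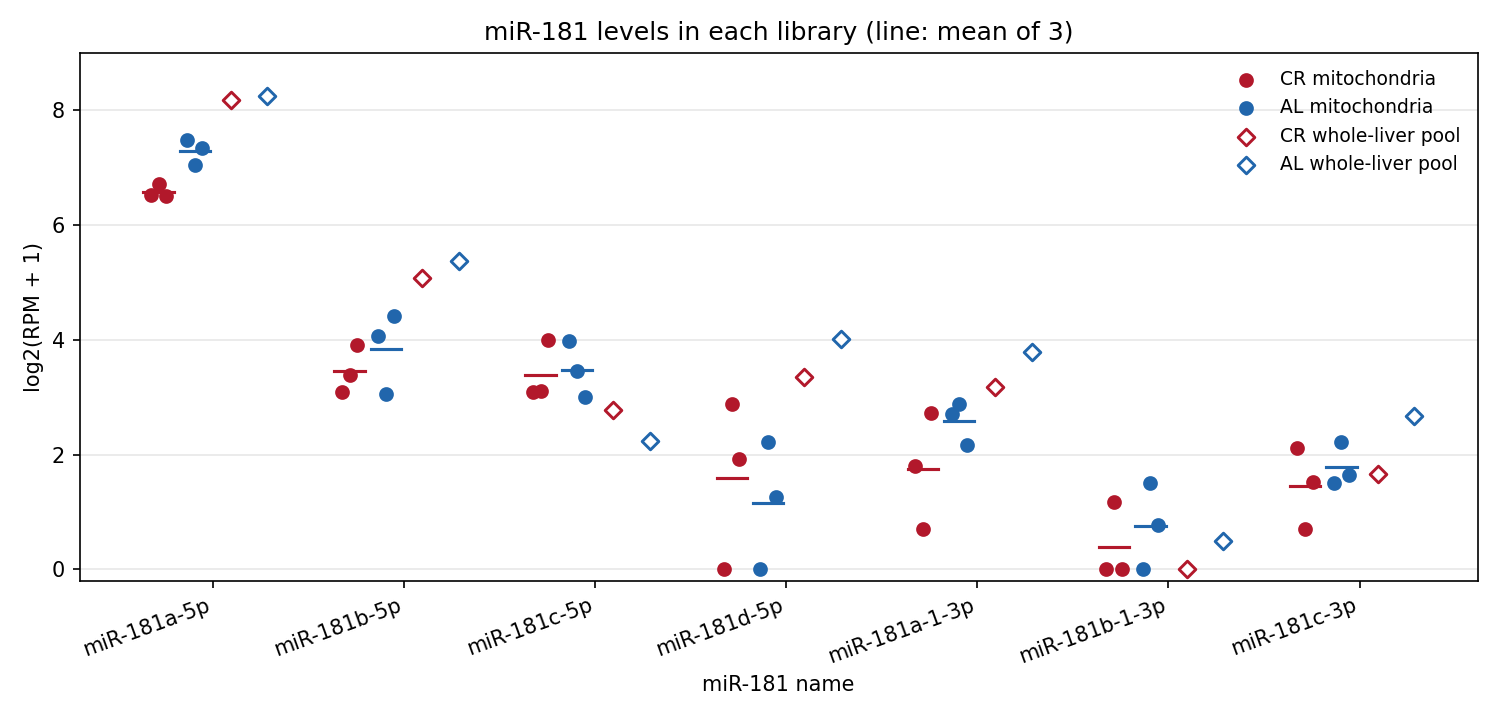
Level of each miR-181 name in each library as log2(RPM + 1), with 1 point per library, filled circles for mitochondria and open diamonds for the whole-liver pools, red for CR and blue for AL, and a line at the mean of 3 libraries. miR-181a-5p lies above the other names in every library, and miR-181c-5p is the name whose 6 mitochondrial points all lie above both pools.

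Mitochondria were compared with whole liver to see which family members accompany the organelle. miR-181a-5p, miR-181b-5p and miR-181d-5p were lower in mitochondria, by 2.44-, 2.96- and 4.95-fold as fitted on log2(RPM + 1). miR-181c-5p, which shares their seed and the intron of miR-181d, had the opposite sign and did not pass the test: it stood 1.91-fold higher in mitochondria. By limma-trend over the 8 libraries with diet as a term, 3 of the 6 tested members passed an adjusted p of 0.05, all of them lower, where 32.1% of the 417 tested names passed and 21.6% passed with a lower level in mitochondria. The median log2 fold change was -1.30 over the 6 members and -0.31 over all tested names, and 5 of 6 members and 59.5% of all tested names were below 0.

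miR-181a-5p had a log2 fold change of -1.28 (SE 0.32, adjusted p = 0.00436 by limma-trend), or -0.98 once the median over the 417 names is subtracted. The 6 mitochondrial libraries, at 89.7 to 178 RPM, all lay below the 2 pools, at 288 and 305 RPM. For miR-181b-5p it was -1.57 (SE 0.45, adjusted p = 0.0114), or -1.26 relative to that median. Its levels were 7.49, 9.51 and 14.0 RPM in CR mitochondria and 15.7, 7.31 and 20.4 RPM in AL mitochondria, against 32.7 RPM in the CR pool and 40.3 RPM in the AL pool, again without overlap. miR-181d-5p, made from the hairpin next to that of miR-181c, had -2.31 (SE 0.70, adjusted p = 0.0155), or -2.002 relative to the median. It stood at 0, 6.34 and 2.80 RPM in CR mitochondria and at 0, 3.65 and 1.41 RPM in AL mitochondria, against 9.25 RPM in the CR pool and 15.2 RPM in the AL pool. The fitted size depends on the 1 RPM added, with -2.72 when 0.5 RPM was added and -1.60 with 3 RPM.

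miR-181c-5p stood at 7.49, 7.61 and 14.9 RPM in CR mitochondria and at 14.8, 10.05 and 7.03 RPM in AL mitochondria, against 5.86 RPM in the CR pool and 3.70 RPM in the AL pool. Every mitochondrial library lay above both pools, which held for 14.9% of the tested names, while all 6 lay below both pools for 27.1% of the names and for 4 of the 6 members. The log2 fold change of miR-181c-5p was 0.93 (SE 0.47, adjusted p = 0.145 by limma-trend), or 1.24 above that median. edgeR's quasi-likelihood test on the recovered reads called it higher in mitochondria (1.52, adjusted p = 0.0336), and over the alternatives its adjusted p ran from 0.0336 to 0.601. The 3p arms did not pass. miR-181a-1-3p, the passenger arm of the chromosome 1 hairpin, had -1.31 (SE 0.54, adjusted p = 0.0726), with 0.634 to 6.39 RPM in mitochondria against 8.02 RPM in the CR pool and 12.7 RPM in the AL pool. miR-181c-3p, the partner of miR-181c-5p, had -0.54 (SE 0.54, adjusted p = 0.452), with 0.634 to 3.65 RPM in mitochondria against 2.16 RPM in the CR pool and 5.35 RPM in the AL pool, so that its groups overlapped.

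**Figure D2:**
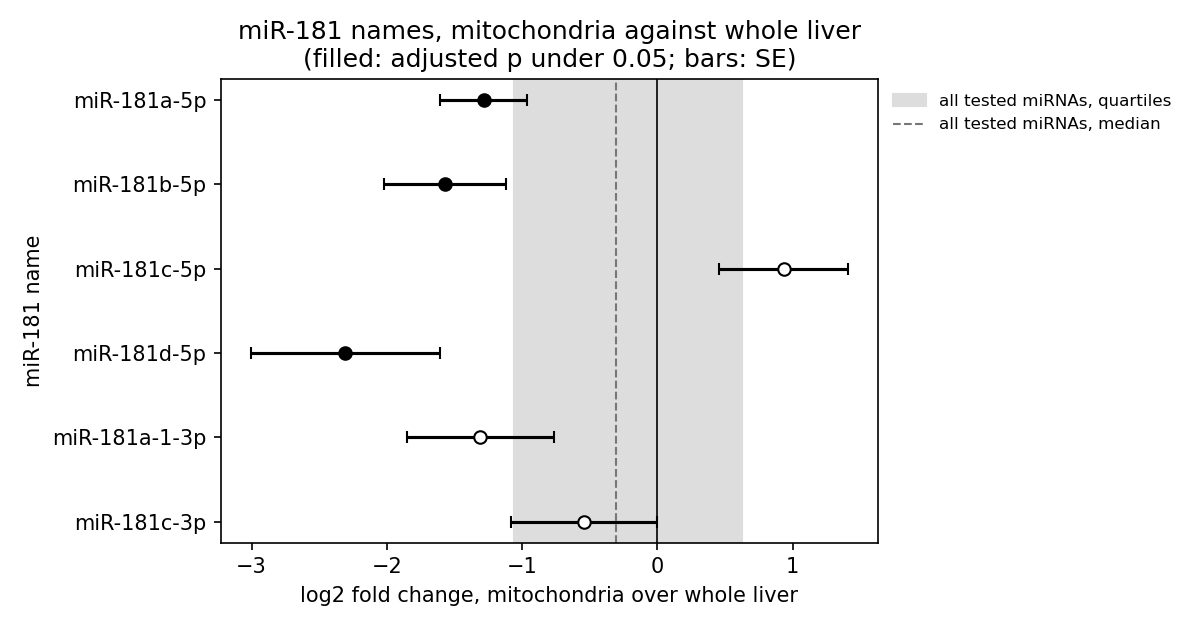
Fitted log2 fold change of the 6 tested miR-181 names in mitochondria over whole liver, with SE bars, filled where the adjusted p is under 0.05, the quartile range of all 417 tested names in grey and their median as a dashed line. The 3 filled points lie between -2.31 and -1.28, and miR-181c-5p lies at 0.93.

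These calls depend on the scale and on the pools. The hepatocyte miRNA miR-122, both arms together, took 53.3%, 25.2% and 58.1% of the reads in CR mitochondria and 38.0%, 45.3% and 41.6% in AL mitochondria, against 26.3% in the CR pool and 25.5% in the AL pool, and its share enters every RPM value. Of all tested names 44 were called higher and 90 lower in mitochondria, against 65 and 63 without miR-122, 59 and 72 with TMM factors, 62 and 72 with DESeq2 size factors, 97 and 70 with edgeR, and 78 and 71 with DESeq2. With miR-122 left out the median of all names moved to -0.02 and miR-181d-5p alone of the 3 passed, with -0.87 (adjusted p = 0.0594) for miR-181a-5p and -1.19 (adjusted p = 0.0690) for miR-181b-5p. Without the CR pool 0 members passed by limma-trend (adjusted p of 0.181, 0.154 and 0.0793 for miR-181a-5p, miR-181b-5p and miR-181d-5p), and without the AL pool miR-181a-5p alone did. Each pool is 1 library and is assumed to vary like the mitochondrial libraries. With no filter on low values miR-181d-5p did not pass (adjusted p = 0.0969).

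Shares within the family do not depend on the scale of a library. Of the reads of the 4 5p arms, which share a seed, miR-181c-5p held 7.09%, 5.97% and 12.3% in CR mitochondria (95% Clopper-Pearson intervals 3.29% to 13.0%, 3.12% to 10.2% and 7.20% to 19.2%) and 7.08%, 6.63% and 3.70% in AL mitochondria (4.10% to 11.2%, 3.35% to 11.5% and 1.79% to 6.71%). It held 1.74% (1.05% to 2.71%) in the CR pool and 1.02% (0.466% to 1.92%) in the AL pool. All 6 mitochondrial shares were above both pools, and only the interval of AL replicate 3 reached those of the pools. This separation had to follow from the levels above and is not a further result. In all 6 mitochondrial libraries miR-181c-5p lay above both pools, and the other 5p arms lay below both. How often the share of 1 name among others separates in this way was not counted. Since a ratio between members shows unequal change, it does not tell a higher miR-181c-5p from lower levels of the other arms.

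The rest of the 5p composition overlapped between fractions. miR-181a-5p made up 73.8% to 86.1% of the 5p-arm reads in mitochondria, against 85.8% in the CR pool and 83.7% in the AL pool. miR-181b-5p made up 4.82% to 11.5% in mitochondria, against 9.72% in the CR pool and 11.1% in the AL pool, and miR-181d-5p 0% to 4.98% against 2.75% and 4.18% in those pools. Expressed as a ratio, miR-181a-5p had 6 to 22.9 times the level of miR-181c-5p in mitochondria, against 49.2 times in the CR pool and 82.4 times in the AL pool. Its ratio to miR-181b-5p was 6.4 to 17.9 in mitochondria, against 8.82 in the CR pool and 7.57 in the AL pool. Of the 4 arms, miR-181c-5p was the one whose mitochondrial shares did not overlap those of the pools, which its levels already implied.

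**Figure D3:**
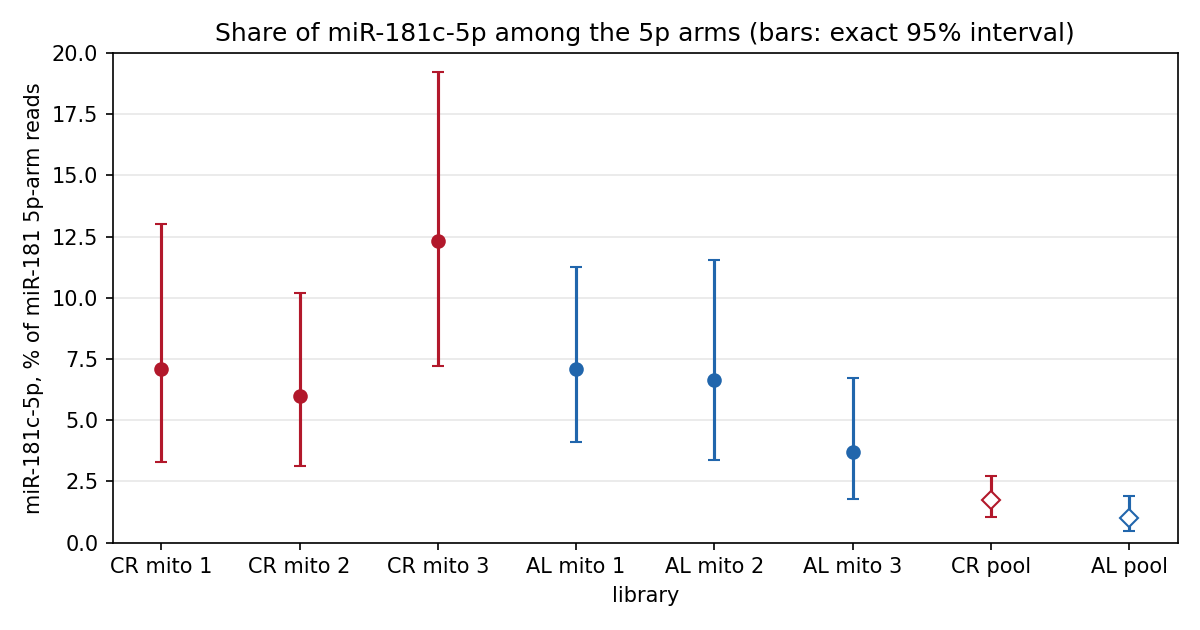
Share of miR-181c-5p in the reads of the 4 miR-181 5p arms, in percent, with 1 point per library and exact 95% intervals, filled circles for mitochondria and open diamonds for pools. The mitochondrial shares run from 3.70% to 12.3% and those of the pools are 1.74% and 1.02%.

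The arms of the miR-181c hairpin showed no such separation. miR-181c-5p made up 69.2%, 92.3% and 88.9% of the 13, 13 and 18 reads of both arms in CR mitochondria, and 88.9%, 73.3% and 76.9% of 18, 15 and 13 reads in AL mitochondria. It made up 73.1% of 26 reads in the CR pool (95% Clopper-Pearson interval 52.2% to 88.4%) and 40.9% of 22 reads in the AL pool (20.7% to 63.6%). The AL pool was below all mitochondrial libraries, and the CR pool was not. For the other hairpin with both arms tested, the level of miR-181a-5p was 16 to 164 times that of miR-181a-1-3p in mitochondria, against 36.0 times in the CR pool and 23.9 times in the AL pool, and part of miR-181a-5p comes from the hairpin on chromosome 2.

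The diets were then compared within mitochondria. miR-181a-5p averaged 94.8 ± 7.95 RPM in CR mitochondria and 157 ± 24.1 RPM in AL mitochondria (SD, n = 3 each), and all 3 CR libraries lay below all 3 AL libraries, but the difference did not pass the test over all names. Its log2 fold change was -0.71 (SE 0.33, adjusted p = 0.360 by limma-trend, unadjusted p = 0.0472), or -0.54 once the median over the 391 names (-0.17) is subtracted. It stayed between -0.83 and -0.47 over 17 alternatives, none of which called it, with adjusted p from 0.198 to 0.682. Of the 391 tested names 14.3% had all CR libraries below all AL libraries, as 1 of the 6 tested members had, and 5.12% had them all above, as 0 members had. By limma-trend 0 of the 6 members passed, where 0.512% of all tested names did, and 1 of 6 members and 13.3% of all names had an unadjusted p under 0.05. edgeR called 0 of the 6 members, and DESeq2 called 0 of the 3 to which it gave an adjusted p (miR-181a-5p, miR-181b-5p and miR-181c-5p).

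The other members overlapped between the diets. miR-181b-5p averaged 10.3 ± 3.34 RPM in CR mitochondria and 14.5 ± 6.63 RPM in AL mitochondria (SD, n = 3 each), with a log2 fold change of -0.38 (95% interval -1.40 to 0.64). miR-181c-5p averaged 10.01 ± 4.27 RPM in CR mitochondria and 10.6 ± 3.90 RPM in AL mitochondria (SD, n = 3 each), with -0.09 (95% interval -1.10 to 0.92) and a sign that turned under 8 of 17 alternatives. miR-181d-5p averaged 3.05 ± 3.18 RPM in CR mitochondria and 1.69 ± 1.84 RPM in AL mitochondria (SD, n = 3 each), with 0.44 (95% interval -1.14 to 2.01), and its value fell below 0 without CR replicate 2 (-0.20) or AL replicate 1 (-0.14). miR-181a-1-3p averaged 2.91 ± 2.51 RPM in CR mitochondria and 5.15 ± 1.48 RPM in AL mitochondria (SD, n = 3 each), with -0.84 (95% interval -2.08 to 0.39), and miR-181c-3p 1.94 ± 1.35 RPM in CR and 2.54 ± 0.976 RPM in AL mitochondria (SD, n = 3 each), with -0.34 (95% interval -1.56 to 0.88). Each of these intervals included 0, which does not show that the diets gave the same level. Leaving out 1 library moved these values: miR-181a-1-3p had -0.33 without CR replicate 2 and -1.33 without CR replicate 3, and miR-181b-5p had -0.19 without CR replicate 1, -0.60 without CR replicate 3, -0.095 without AL replicate 3 and -0.78 without AL replicate 2. The median over the 6 members was -0.36, against -0.17 over all tested names.

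**Figure D4:**
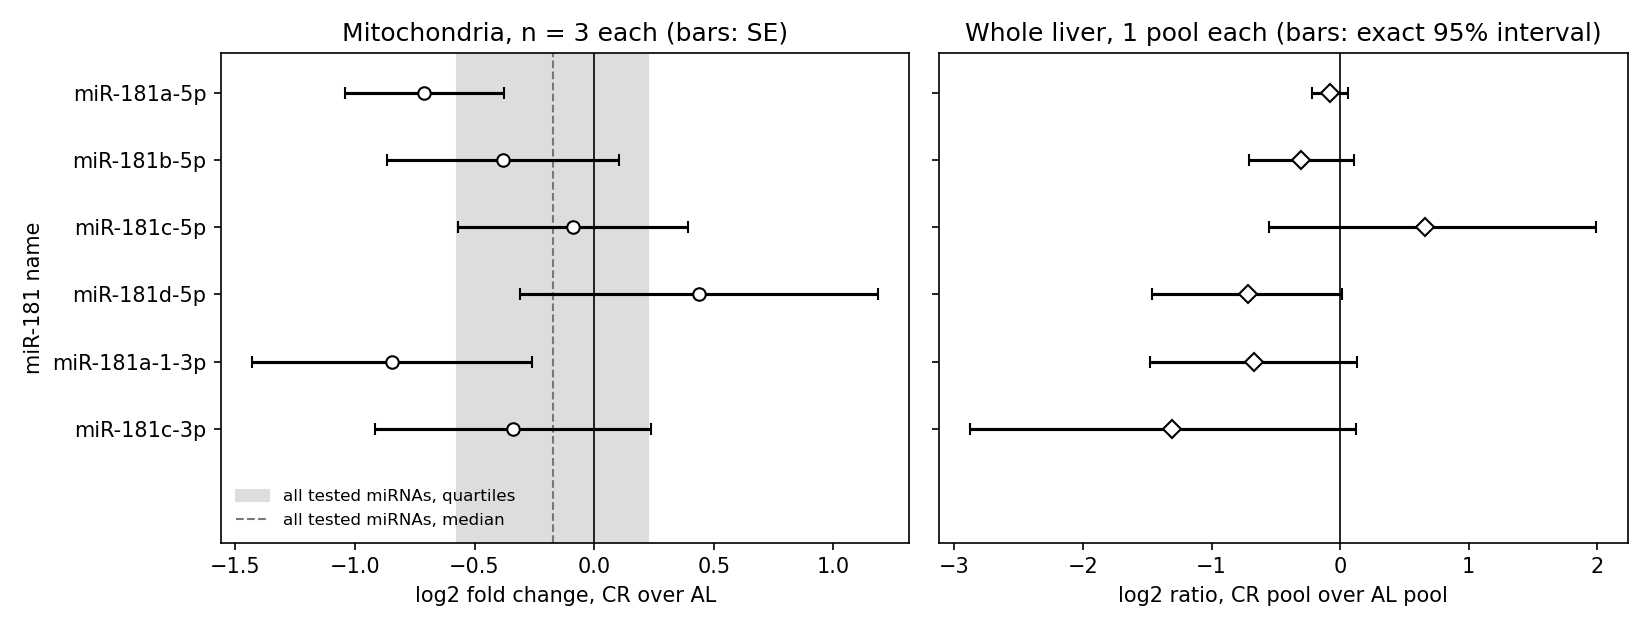
Left, fitted log2 fold change of the 6 tested miR-181 names in CR over AL mitochondria with SE bars, the quartile range of all 391 tested names in grey and their median dashed. Right, log2 ratio of the CR over the AL whole-liver pool with exact 95% intervals. miR-181a-5p lies at -0.71 in mitochondria and at -0.08 in the pools, and no name passed the test on the left.

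In whole liver miR-181a-5p was near equal in the CR and the AL pool, while the less abundant members had wide intervals. miR-181a-5p was at 288 RPM (935 reads) in the CR pool and 305 RPM (742 reads) in the AL pool, a log2 ratio of -0.08 (95% exact interval -0.22 to 0.06), which turned to 0.23 with TMM factors and 0.08 with DESeq2 size factors. miR-181b-5p had a log2 ratio of -0.30 (-0.71 to 0.11), or 0.0057 with TMM factors, and miR-181d-5p one of -0.72 (-1.46 to 0.02). For miR-181a-1-3p the log2 ratio was -0.67 (-1.48 to 0.13), and for miR-181c-3p -1.31 (-2.87 to 0.12). miR-181c-5p had 0.66 (-0.55 to 1.99). Every interval, all on the RPM scale, included 0, which does not show that the levels were equal. No intervals were computed on the other scales. The values of miR-181a-5p with TMM factors and with DESeq2 size factors lay outside its RPM interval. Of the 4 members with at least 10 RPM in a pool 0 differed by 2-fold or more, where 5.35% of the 243 such names were that much higher and 7.82% that much lower in the CR pool. That count leaves out miR-181c-3p, whose CR over AL ratio was 0.404 on 7 and 13 reads. It also leaves out miR-181c-5p, with 1.58 on 19 and 9 reads. The ratios compare 2 single libraries, not the diets, and nothing replicates them.

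Whether the diet difference in mitochondria differed from that in the pools was tested as an interaction over the 8 libraries. By limma-trend 0 of the 6 members passed (adjusted p = 0.998 for each), and 0 of the 417 tested names did, with 0 members and 5 names at an unadjusted p under 0.05. edgeR and DESeq2 called 0 names as well. The lower value of miR-181a-5p in CR mitochondria and its near equality in the pools are therefore not shown to differ.

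The profile of miR-181a-5p over the 8 libraries was set beside those of the 231 other names with a mean of at least 10 RPM. Likeness was the root mean square difference of log2(RPM + 1) after each profile was centred on its own mean. let-7c-5p was nearest (0.22), followed by miR-93-5p (0.26), miR-145a-3p (0.26), miR-98-5p (0.27) and miR-103-3p (0.29), where the median of all 231 was 0.73. let-7c-5p, a member of the let-7 family, averaged 2040.2 ± 195 RPM in CR mitochondria and 3804 ± 753 RPM in AL mitochondria (SD, n = 3 each), against 5266 RPM in the CR pool and 4993 RPM in the AL pool. The points share their libraries and their scale.

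Earlier work named a list of miRNAs in mitochondria, miR-181c among them. Names were matched with any arm, so an arm counted here need not be the one that work named. Of 24 tested names on that list 3 rose in mitochondria against whole liver, 1 fell and 20 did not pass, where 10.6% of all 417 tested names rose and 21.6% fell. The median log2 fold change was -0.18 over the list and -0.31 over all tested names. Between the diets 0 of 24 passed, where 0.512% of all 391 tested names did, with a median of -0.15 over the list and -0.17 over all. The risers were miR-146a-5p, a brake on NF-kappaB signalling, at 6597 ± 3512 RPM in mitochondria (SD, n = 6) against 389.9 RPM in the CR pool and 630.5 RPM in the AL pool (log2 fold change 3.54, adjusted p = 7.16e-07 by limma-trend), miR-378a-3p from an intron of Ppargc1b (2.14, adjusted p = 0.000609) and miR-24-2-5p (1.01, adjusted p = 0.0382). miR-92a-3p of the miR-17-92 clusters fell (-1.78, adjusted p = 0.00507).

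The label of the tissue was checked against marker miRNAs. For comparison, 10.6% of all 417 tested names rose and 21.6% fell in mitochondria against whole liver. With the diet 0.512% of all 391 tested names passed, so a count of 0 on a short list says little. The hepatocyte list, 8 names of miR-122, miR-192, miR-194 and miR-148a, summed to 50.8% to 70.3% of the reads in mitochondria and 46.4% to 55.3% in the pools. In mitochondria against whole liver miR-192-3p rose (log2 fold change 3.08), and miR-148a-5p (-1.64) and miR-194-2-3p (-1.99) fell, with 5 of its 8 names not passed, and with the diet 0 of 8 passed. The neuronal names summed to at most 0.00668% of the reads in mitochondria and 0.00975% in the pools, with miR-128-3p lower in mitochondria (-1.52) and 0 of 4 tested names passed with the diet. Leukocytes and endothelium are cell types in which miR-181 is known. The leukocyte list of 12 names summed to 3012 to 4919 RPM in CR mitochondria and 8126 to 11102 RPM in AL mitochondria, against 769 to 1103 RPM in the pools, with 0 of its 9 tested names passed with the diet and 1, miR-146a-5p, higher in mitochondria. Without both arms of miR-146a the 10 names left summed to 249 to 354 RPM in CR mitochondria, 351 to 513 RPM in AL mitochondria, 378 RPM in the CR pool and 473 RPM in the AL pool. The endothelial list of 8 names summed to 7624 to 21077 RPM in CR mitochondria and 8341 to 12615 RPM in AL mitochondria, against 16852 to 21877 RPM in the pools. Of these 8 names 3 were lower in mitochondria (miR-221-5p at -4.82, miR-126b-5p at -1.12 and miR-126a-3p at -1.08), and 0 of 8 passed with the diet. The stellate cell and fibroblast list of 9 names summed to 25662 to 44663 RPM in CR mitochondria and 35621 to 47454 RPM in AL mitochondria, against 14710 to 15881 RPM in the pools. miR-143-3p alone averaged 35689 RPM in mitochondria, against 13104 RPM in the CR pool and 11712 RPM in the AL pool. With the diet miR-199a-3p was lower in CR than in AL mitochondria (-1.64) and 8 of 9 names did not pass. In mitochondria against whole liver miR-143-3p was higher (1.48), and miR-199a-5p (-1.59), miR-145a-3p (-1.42) and miR-145a-5p (-1.25) were lower, with 5 of 9 names not passed. The adjusted p of these calls by limma-trend was at most 0.0424. The part of these cells in the levels of miR-181 was not tested, and in bulk samples fewer cells of a type and less of a miRNA per cell cannot be told apart.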

How the data were processed

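Small RNA libraries of 6 mitochondrial preparations and 2 whole-liver pools were used. The values are RPM, which the authors scaled to 1000000 reads per library over the listed names with no length scaling, although the deposited columns are headed tpm. Reads were mapped with Bowtie against mm9, per the submitters' processing notes. How names were assigned is not given in the sources used here. Dividing the deposited RPM by the lowest value of the library gave whole reads throughout (100% of values, within 0.01 read), and these reads were used for intervals and count tests. Depths are given with the results.

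The main test was limma-trend on log2(RPM + 1), in limma 3.58.1 under R 4.3.3. It covered all names that reached 1 RPM in 3 or more libraries, and p-values were adjusted over all of them by Benjamini and Hochberg, with calls at 0.05. edgeR 4.0.16 and DESeq2 1.42.0 on recovered reads, other pseudocounts, filters and scales, and leaving out libraries were alternatives. Pools were compared by ratio, with exact 95% intervals conditional on the reads of both (scipy 1.17.1). Shares have Clopper-Pearson intervals. Members, marker lists (hepatocyte, leukocyte, endothelium, stellate cells and fibroblasts, neurons, miRNAs named in mitochondria) and tests were chosen with earlier results of these data known. Named were all members, the 5 most similar names and up to 4 called names per list by p. Sequences are from the deposited tables and RefSeq, and hairpin positions from GENCODE M21 (GRCm38), not from the mm9 alignment.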

Additional observations from a re-analysis of the deposited data

How the results depend on the processing

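In mitochondria against whole liver the 3 members called by limma-trend became 1 without miR-122 (miR-181d-5p), and 0 to 4 when a library was left out. The 4 came without CR mitochondrial replicate 3, when miR-181a-1-3p was called too (-1.53, adjusted p = 0.0371). All 6 members kept the sign of their log2 fold change there in every alternative run. Calls over all names, 134, ranged from 58 to 140 when a library was left out. The diet comparison called 0 members in every alternative, where DESeq2 gave 3 of the 6 no adjusted p. Its 2 calls over all names became 10 with no filter, 8 at 10 RPM, 5 with TMM factors, 5 with DESeq2 size factors, 4 without miR-122, 1 with robust moderation, 7 with edgeR, 11 with DESeq2 and 0 to 6 without a library. For miR-181c-5p the diet value was 0.11 with TMM factors, 0.14 with DESeq2 size factors, 0.052 without miR-122, 0.15 with edgeR and 0.20 with DESeq2. It ran from -0.39 to 0.16 when a library was left out, and likewise from -0.67 to 0.029 for miR-181c-3p, from -0.20 to 1.24 for miR-181d-5p, from -1.33 to -0.33 for miR-181a-1-3p and from -0.78 to -0.095 for miR-181b-5p. The interaction called 129 names with no filter, where names at 0 in most libraries enter, and none of them was a member. The summed family level, as log2 of the mean in CR over that in AL mitochondria, was -0.64, and -0.29, -0.39 and -0.45 with TMM factors, with DESeq2 size factors and without miR-122. As log2 of the mean in mitochondria over that in whole liver it was -1.21, and -0.94, -0.92 and -0.79 in the same order. The cause was not tested.

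Whether replicate numbers pair the mitochondrial libraries was not settled. Deviations from the group means correlated at 0.36, 0.08 and 0.11 between libraries of the same number, and at -0.29 to 0.22 between libraries of different numbers. CR replicates 1 and 2 correlated best with the AL library of the same number, and CR replicate 3 with AL replicate 2 (0.22). With the replicate number as a block 0 members and 3 names were called. The adjusted p of miR-181a-5p by limma-trend was then 0.198, against 0.360 without the block. Names at an unadjusted p under 0.05 were 69 with the block and 52 without it. The pools carry no number, so no block was fitted against whole liver. Few reads limit all members but miR-181a-5p.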
